A study of Homo sapiens with 12 samples.

Results

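The 10 genes described here encode proteins that reverse DNA base damage of the kind temozolomide (TMZ) leaves, or that carry out base excision repair: MGMT, ALKBH2, ALKBH3, MPG, UNG, APEX1, PARP1, XRCC1, POLB and LIG3. They were chosen by gene symbol for these roles and matched 1 to 1 to Ensembl identifiers, 10 of the 58174 identifiers in each deposited table. The mRNA-seq compared sensitive with resistant cells of U-87 MG (U87) and U-118 MG (U118), both established human glioblastoma lines, with 3 libraries in each of 4 groups. The paper calls the sensitive cells control and the resistant cells aggregation. Sensitive cells of both lines came from cultures depleted of cells that carry CD133 or CD15 and kept in serum with BMP2, a differentiation factor. Resistant cells were the aggregates that such cultures formed weeks after TMZ at 50 μM was started, where the paper's accounts differ on whether TMZ was still present, and they descended from rare surviving cells, which limits how far each line stands for resistance in general. Nothing in the sources used here says that the 3 libraries of a group came from separate cultures, so p-values measure only the spread between these libraries.

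TMZ methylates guanine at its oxygen and purines at ring nitrogens. MGMT takes the methyl group off the guanine oxygen in a single step and is used up in doing so, and silencing of its promoter by CpG methylation is the best known marker of TMZ response in glioblastoma. ALKBH2 and ALKBH3 remove methyl groups from ring nitrogens by oxidation, in double-stranded DNA and in single strands or RNA, respectively. The more frequent nitrogen adducts are handled by base excision repair: a glycosylase such as MPG cuts the base out, APEX1 nicks the backbone at the empty site, PARP1 senses the nick, XRCC1 gathers the partners, POLB fills the gap and LIG3 seals it.

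Levels are in TPM, which corrects reads for transcript length and sets each library to an equal sum. This unit holds no read counts, so depth is unknown. Library facts bear on every value. Spearman's rho across 16382 genes was 0.960 to 0.988 within groups. The U118 resistant libraries reached 0.808 to 0.839 with U118 sensitive libraries and 0.895 to 0.913 with the U87 libraries, so by expression rank they stood closer to the other cell line than to the sensitive cells of their own label. THY1, a surface protein of mesenchymal cells, was at 0 to 0.127 TPM in the U87 libraries, 213 to 459 TPM in the U118 sensitive and 51.2 to 104 TPM in the U118 resistant libraries. Other fibroblast markers differed, given in the same order. DCN was at 0 to 1.94, 32.9 to 39.6 and 0.224 to 1.06 TPM. LUM was at 0.300 to 5.77, 18.5 to 29.8 and 1.83 to 2.48 TPM. PDGFRB was at 5.08 to 16.7, 21.5 to 25.8 and 10.7 to 16.1 TPM. COL1A1 was at 37.3 to 101.5, 380.5 to 402.8 and 105.1 to 236.9 TPM. COL1A2 was at 184.7 to 382.2, 445.7 to 679.5 and 124.4 to 313.5 TPM. COL3A1 was at 0.0378 to 1.53, 0.135 to 0.262 and 0.0662 to 0.147 TPM. The U118 resistant values of DCN, LUM, PDGFRB and COL3A1 lay in the U87 range, those of THY1 and COL1A1 above it. Those of COL1A2 lay in or below it. Among glioblastoma line markers, CHI3L1 was at 34.5 to 67.0, 1.14 to 1.85 and 2.20 to 5.88 TPM. OLIG2 was at 1.45 to 4.45, 0 to 0.0524 and 0.570 to 1.05 TPM. CD44 was at 311.4 to 480.1, 729.6 to 867.9 and 354.1 to 566.2 TPM. Which line the libraries labelled U118 resistant came from was not tested, and every U118 value below rests on that label. Mitochondrially encoded genes took 12.9% to 16.9% of TPM in U87 sensitive, 22.2% to 23.7% in U87 resistant, 7.42% to 19.7% in U118 sensitive and 13.2% to 29.9% in U118 resistant libraries. U118 resistant replicate 1 stood apart in that share, the lowest of its group, as did U118 sensitive replicate 3, the highest of its group and the lowest of the 3 in MGMT, ALKBH2, MPG, APEX1, LIG3 and UNG. Across all genes tested, resistant libraries were lower by the median, at a log2 fold change of -0.245 (U87) and -0.522 (U118). These medians became -0.0157 and -0.0454 when libraries were rescaled by their median ratio, and rescaled values are therefore given beside those from TPM as deposited. Of 8 glioblastoma line markers, VIM and CD44 were abundant, while SOX2, GFAP and S100B stayed under 1 TPM in all 12 libraries, and 6 leukocyte markers summed to under 3 TPM in each library. The sum of 7 fibroblast markers, which mesenchymal cell lines also express, was 229 to 235 TPM in U87 sensitive, 425 to 508 TPM in U87 resistant, 1202 to 1618 TPM in U118 sensitive and 294 to 662 TPM in U118 resistant libraries, and its part in the results below was not tested.

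The promoter sequences of MGMT and PARP1 are shown because MGMT was listed at 0 in U118 resistant cells and PARP1 was the member called in U87. They come from RefSeq on GRCh38.p14, are written 5′ to 3′ in the direction of transcription, and carry each CpG in capitals. No methylation was measured in the libraries described here.
MGMT, chr10:129466991-129467183, plus strand: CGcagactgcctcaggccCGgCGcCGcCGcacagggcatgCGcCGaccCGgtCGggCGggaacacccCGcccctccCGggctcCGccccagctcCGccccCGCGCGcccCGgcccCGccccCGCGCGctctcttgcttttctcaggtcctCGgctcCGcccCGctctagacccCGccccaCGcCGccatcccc
PARP1, chr1:226408094-226408343, minus strand: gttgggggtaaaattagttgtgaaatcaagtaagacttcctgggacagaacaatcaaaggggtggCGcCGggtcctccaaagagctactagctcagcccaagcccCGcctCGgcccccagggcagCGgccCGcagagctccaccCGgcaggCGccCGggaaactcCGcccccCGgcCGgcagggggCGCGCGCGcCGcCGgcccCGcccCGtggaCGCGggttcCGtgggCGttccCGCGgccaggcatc
The stretch shown for MGMT holds 28 CpGs in 193 bases and that for PARP1 26 in 250 bases. Over the full window of 300 bases around its start, MGMT held 45 CpGs, and 3.48% of the 35116 promoters in the RefSeq table held at least as many, against a median of 14. The members' other windows held 19 to 34. RefSeq windows were found for 9 of the 10 genes, 10 windows in all since UNG has 2 starts. The GC box GGGCGG, searched on both strands, was present for 7 of these 9 genes and in 45.0% of all promoters, with 8 matches for MGMT. CCAAT was present for 5 of 9 and in 34.6% of all promoters. CACGTG, the E-box, was present for 4 of 9 (MPG, APEX1, LIG3 and UNG) and in 7.26% of all promoters. Members are counted by gene, where a match in either UNG window was enough, while the shares of all promoters are by window. These matches describe the letters in the windows only.

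**Figure D1:**
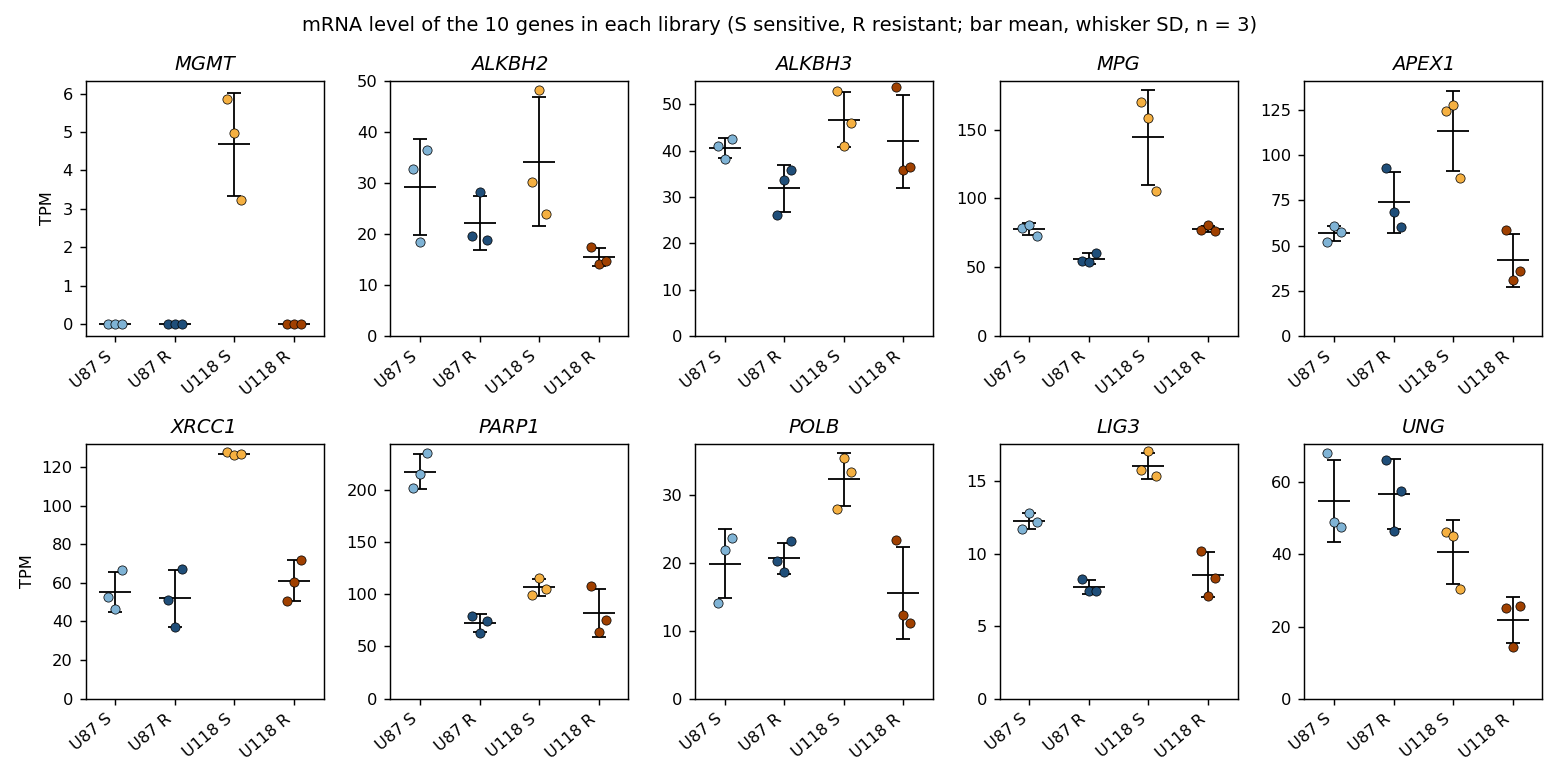
TPM of each of the 10 genes in each of the 12 libraries, 1 panel a gene; points are libraries, bars the mean and whiskers the SD of 3 libraries. MGMT was above 0 in the U118 sensitive libraries only (3.23 to 5.85 TPM), and PARP1 had its highest values in U87 sensitive cells (201.7 to 235.7 TPM).

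The direct reversal enzymes come first. MGMT (ENSG00000170430, GENCODE 29 on GRCh38, chromosome 10, 129467184 to 129768007, plus strand) was listed at 0 in all 6 U87 libraries, sensitive and resistant alike. The U118 values were 5.85, 4.97 and 3.23 TPM in the sensitive libraries and 0 in each of the 3 resistant ones. The groups of U118 did not overlap, and neither line's resistant cells had any MGMT mRNA listed. At these levels MGMT ranked above 55.9% to 61.8% of the genes with a value above 0 in the U118 sensitive libraries, the lowest of the 10 members there. Exact zeros can hide a failed estimate. Genes at 10 TPM or more in a pair of libraries of a group and listed at 0 in the remaining one numbered 3 in U87 sensitive, 0 in U87 resistant, 1 in U118 sensitive and 0 in U118 resistant cells, a count that cannot show an estimate that failed in all 3. In limma on log2(TPM + 1) the U118 adjusted p of MGMT was 2.59e-05, and 2.55e-11 to 0.00175 over the 10 alternatives in which it was tested. No fold is given against a group at 0, and since MGMT passed the filter on low values only through the sensitive libraries, it had to differ. It was not tested in U87.

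The MGMT pattern was shared. Of 14201 genes at 1 TPM or more in all 3 U118 sensitive libraries, 180 (1.27%) were listed at 0 in the other 9 libraries, and 252 were listed at 0 in the 3 U118 resistant libraries. By Pearson's r of log2(TPM + 1) over the 12 libraries, the genes most like MGMT among 16382 were ZNF667, KRT14, IPO5P1, MAGEA2 and CITED4, with r from 0.999762 to 0.999943. These points share libraries and 9 of them are at or near 0, so r mostly records the on and off pattern. ZNF667 encodes a zinc finger protein, KRT14 a keratin of basal epithelium and MAGEA2 a cancer-testis antigen. On chromosome 10 the nearest protein-coding neighbours did not share it: EBF3, 67276 bases away, stayed under 0.2 TPM in every library, and MKI67, the proliferation marker 1340799 bases away, was at 51.7, 45.9 and 58.9 TPM in U118 sensitive and 26.9, 47.8 and 40.8 TPM in U118 resistant libraries.

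ALKBH2 (ENSG00000189046, chromosome 12, 109088188 to 109093631, minus strand), the dioxygenase that works on double-stranded DNA, varied widely in U87. It stood at 32.8, 18.5 and 36.4 TPM in sensitive and 19.7, 28.3 and 18.7 TPM in resistant U87 libraries, and the groups overlapped. The U118 libraries held 30.2, 48.3 and 24.0 TPM in sensitive and 17.4, 14.2 and 14.8 TPM in resistant libraries. Here all resistant values lay under all sensitive ones. The log2 fold change was -0.35 in U87 (SE 0.28, limma adjusted p = 0.36) and -1.04 in U118 (SE 0.28, limma adjusted p = 0.0133). After rescaling the U118 value was -0.51 (limma adjusted p = 0.144), and without U118 sensitive replicate 2, the highest library, it was -0.77 (limma adjusted p = 0.0634). Without U118 resistant replicate 2 it was -0.99, just under the fold threshold.

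ALKBH3 (ENSG00000166199, chromosome 11, 43880811 to 43920266, plus strand), which repairs single-stranded DNA together with the ASCC helicase complex, had no called change in either line. Its U87 values were 40.9, 38.2 and 42.6 TPM in sensitive and 26.2, 33.8 and 35.8 TPM in resistant libraries, without overlap. Its U118 values were 52.9, 41.1 and 46.1 TPM in sensitive and 53.7, 35.8 and 36.5 TPM in resistant libraries, with overlap because resistant replicate 1 was the highest of the 6. The log2 fold change was -0.35 in U87 (SE 0.13, limma adjusted p = 0.0797). In U118 it was -0.17 (SE 0.23, limma adjusted p = 0.567), and 0.38 after rescaling (limma adjusted p = 0.0878). The antisense gene ALKBH3-AS1 overlaps it, reached at most 2.46 TPM, and cannot be told apart from ALKBH3 if strand was not used in counting.

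Both glycosylases kept substantial levels in each group. MPG (ENSG00000103152, chromosome 16, 77007 to 85853, plus strand), the glycosylase that excises methylated purines, was at 78.8, 81.0 and 72.6 TPM in U87 sensitive and 54.5, 53.7 and 60.5 TPM in U87 resistant libraries. Its U118 levels were 169.8, 158.7 and 105.2 TPM in sensitive and 77.1, 80.4 and 76.1 TPM in resistant libraries. The groups did not overlap in either line. Its log2 fold change was -0.46 in U87 (SE 0.09, limma adjusted p = 0.00638) and -0.85 in U118 (SE 0.23, limma adjusted p = 0.0137). Both were under the fold threshold, and after rescaling they were -0.20 and -0.30 (limma adjusted p = 0.253 and 0.374). Without U118 sensitive replicate 3 the U118 value was -1.07 and passed both thresholds.

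UNG (ENSG00000076248, chromosome 12, 109097574 to 109110992, plus strand), the uracil glycosylase, lies 3943 bases from ALKBH2 and is transcribed away from it. It was at 68.1, 49.0 and 47.8 TPM in sensitive and 66.1, 46.6 and 57.8 TPM in resistant U87 libraries, with overlap. Across U118 it stood at 46.3, 45.1 and 30.5 TPM in sensitive and 25.2, 14.4 and 25.8 TPM in resistant libraries, without overlap. Its log2 fold change was 0.05 in U87 (SE 0.18, limma adjusted p = 0.846) and -0.89 in U118 (SE 0.29, limma adjusted p = 0.0287), and -0.35 in U118 after rescaling (limma adjusted p = 0.261). It passed both thresholds without U118 sensitive replicate 3 (-1.08), resistant replicate 1 (-1.01) or resistant replicate 3 (-1.03).

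APEX1 (ENSG00000100823, chromosome 14, 20455191 to 20457772, plus strand) encodes the main endonuclease for sites that have lost a base. Its log2 fold changes had opposite signs in the lines. Those of POLB and UNG did too, but their U87 values, 0.08 (SE 0.20) and 0.05 (SE 0.18), were under their SE. These U87 values of POLB and UNG also changed sign in some fits that left out 1 library. In U87 APEX1 was at 52.2, 60.8 and 57.3 TPM in sensitive and 93.0, 68.5 and 60.3 TPM in resistant libraries. The groups overlapped by a narrow margin, resistant replicate 3 lying just under sensitive replicate 2. In U118 it was at 124.7, 127.8 and 87.7 TPM in sensitive and 58.5, 30.8 and 36.0 TPM in resistant libraries, without overlap. The log2 fold change was 0.35 in U87 (SE 0.16, limma adjusted p = 0.128), and 0.61 after rescaling (limma adjusted p = 0.0166). In U118 it was -1.45 (SE 0.28, limma adjusted p = 0.00275), and -0.90 after rescaling (limma adjusted p = 0.00527), which left it under the fold threshold. PIP4P1 overlaps APEX1 on the opposite strand, at 30.7 to 32.9 TPM in U118 sensitive and 19.9 to 25.2 TPM in U118 resistant libraries. OSGEP, whose span ends 86 bases from that of APEX1, was at 31.3 to 52.2 and 8.99 to 17.4 TPM in the same groups, a log2 fold change of -1.56 (SE 0.30, limma adjusted p = 0.00249).

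PARP1 (ENSG00000143799, chromosome 1, 226360691 to 226408079, minus strand), the main sensor of DNA nicks and the target of PARP inhibitors, was the most abundant member in U87 sensitive cells and the single member called there. It was at 201.7, 215.8 and 235.7 TPM in U87 sensitive and 79.4, 63.3 and 74.8 TPM in U87 resistant libraries. The lowest sensitive library was thus far above the highest resistant one. The log2 fold change was -1.58 (SE 0.11, 95% interval -1.83 to -1.32, limma adjusted p = 0.000126), a ratio of 0.335, and -1.32 after rescaling (limma adjusted p = 0.00014). The U118 libraries had 99.6, 115.3 and 105.2 TPM in sensitive and 108.3, 64.2 and 74.9 TPM in resistant libraries, with overlap through resistant replicate 1. The U118 log2 fold change was -0.40 (SE 0.24, limma adjusted p = 0.183), and 0.15 after rescaling (limma adjusted p = 0.460).

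XRCC1 (ENSG00000073050, chromosome 19, 43543040 to 43580473, minus strand), the scaffold that holds POLB and LIG3 at the break, showed no difference beyond the spread in U87. It was at 52.8, 46.3 and 66.9 TPM in sensitive and 51.4, 37.2 and 67.2 TPM in resistant U87 libraries, with overlap. The U118 sensitive libraries were almost equal at 127.7, 126.4 and 126.7 TPM, and the resistant ones were at 50.6, 60.7 and 72.0 TPM, without overlap. The U87 log2 fold change was -0.11 (SE 0.23, 95% interval -0.66 to 0.43, limma adjusted p = 0.727). In U118 it was -1.06 (SE 0.21, limma adjusted p = 0.00277), and -0.50 after rescaling (limma adjusted p = 0.180). Without U118 resistant replicate 1 it was -0.93, under the fold threshold.

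POLB (ENSG00000070501, chromosome 8, 42338454 to 42371808, plus strand), the gap-filling polymerase, was at 14.0, 21.9 and 23.6 TPM in U87 sensitive and 20.2, 18.7 and 23.1 TPM in U87 resistant libraries, with overlap. In U118 POLB stood at 28.0, 35.5 and 33.4 TPM in sensitive and 23.4, 12.3 and 11.1 TPM in resistant libraries, without overlap. Resistant replicate 1 was the closest to the sensitive libraries. The log2 fold change was 0.08 in U87 (SE 0.20, limma adjusted p = 0.777) and -1.07 in U118 (SE 0.30, limma adjusted p = 0.0149), and -0.54 in U118 after rescaling (limma adjusted p = 0.0492). The U118 call was lost in 4 of the 6 fits that left out 1 library, those without sensitive replicate 2 or 3 or resistant replicate 2 or 3, in which it lay between -0.88 and -1.05.

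LIG3 (ENSG00000005156, chromosome 17, 34980494 to 35009743, plus strand), the ligase that works with XRCC1 and also seals mitochondrial DNA, was the least abundant member after MGMT. It was at 11.7, 12.8 and 12.2 TPM in U87 sensitive and 8.23, 7.45 and 7.41 TPM in U87 resistant libraries. For U118 the values were 15.7, 17.1 and 15.4 TPM in sensitive and 10.2, 7.11 and 8.28 TPM in resistant libraries. Neither line showed overlap. Replicates lay close together except in U118 resistant cells, where the SD was 1.55 TPM on a mean of 8.53 TPM. The log2 fold changes of -0.61 in U87 (SE 0.12, limma adjusted p = 0.00807) and -0.85 in U118 (SE 0.23, limma adjusted p = 0.0133) were under the fold threshold. After rescaling they were -0.37 and -0.34 (limma adjusted p = 0.0659 and 0.124).

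**Figure D2:**
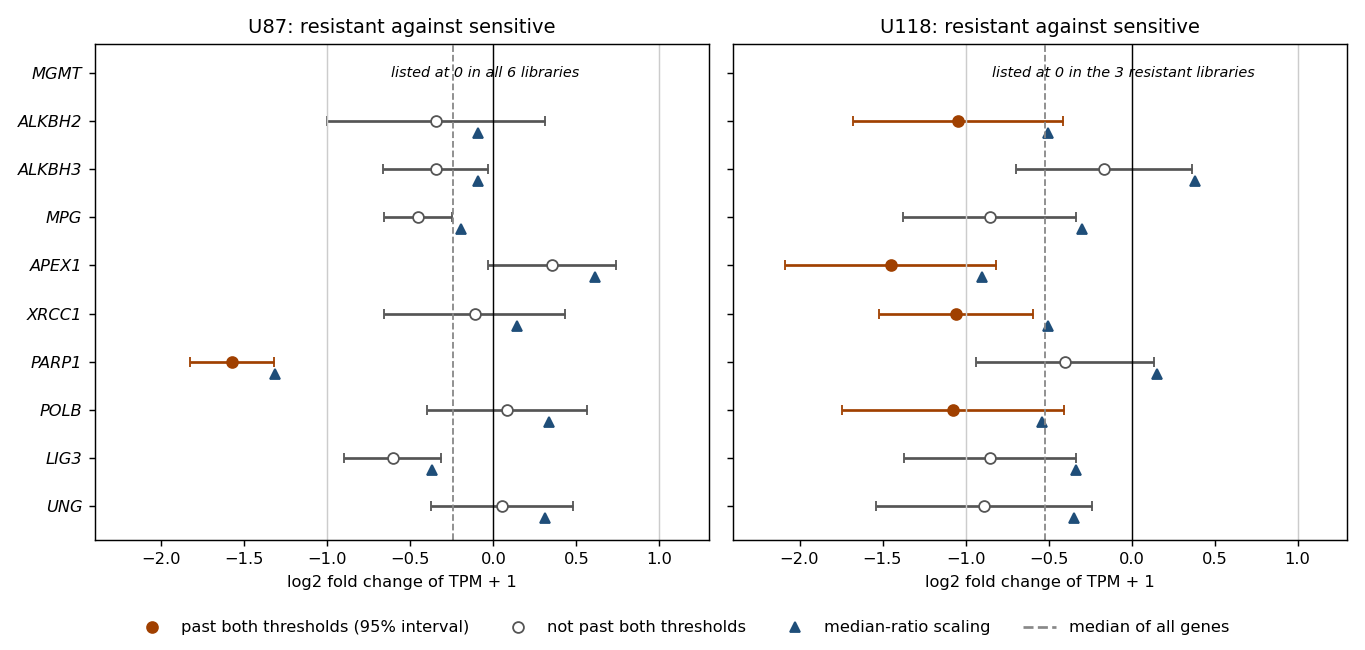
Log2 fold change of TPM + 1, resistant against sensitive, for each member in U87 (left) and U118 (right), with 95% intervals; filled points passed both thresholds, triangles show the value after median-ratio scaling, the dashed line the median of all genes and the grey lines the fold threshold of 1 in either direction. PARP1 stands alone at -1.58 in U87, and in U118 the filled points are ALKBH2, APEX1, XRCC1 and POLB, which all move to the right of -1 after scaling. MGMT, also called in U118, is drawn without a point because its resistant libraries were at 0.

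The comparison within U87 asked which of these enzymes had a different mRNA level in the aggregates that formed after TMZ was started. A call needed both a limma adjusted p under 0.05 and a change of 1 or more, up or down, on the log2 scale. Of the 9 members tested, 1 (PARP1) was called lower and 0 were called higher, while 7.79% of the 13845 genes tested were called lower and 3.03% higher. The count was 1 in the rescaled fit as well, beside 3.92% of all genes called lower. Without the fold threshold 3 members were lower (PARP1, MPG and LIG3) at limma adjusted p-values of 0.000126, 0.00638 and 0.00807, beside 29.7% of all genes. PARP1 passed in all 14 alternatives, with log2 fold changes of -1.48 to -1.64 when each library was left out. In 4 members (ALKBH3, MPG, PARP1 and LIG3) every resistant library lay under every sensitive one, a pattern 39.8% of all genes had. The members' median log2 fold change was -0.35, beside -0.245 for all genes.

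In U118 the same question gave 5 of 10 members called lower (MGMT, ALKBH2, APEX1, XRCC1 and POLB) and 0 higher, while 26.6% of the 15527 genes tested were called lower and 8.64% higher. MGMT entered only through the group in which it is high, and without it the count was 4 of 9. After rescaling, 0 of these 9 were called (MGMT still was), beside 13% of all genes called lower. With TPM recomputed without mitochondrially encoded genes 2 members were called lower, MGMT included, beside 22.2% of all genes. Without the fold threshold 8 were, or 7 of 9 without MGMT, beside 39.1%. In 8 members, MGMT included, the groups did not overlap, all lower in resistant libraries, as in 42.9% of all genes. The members' median was -0.97 on the log2 scale against -0.522 for all genes, and -0.43 against -0.0454 after rescaling, when 8 of the 10 were below 0. These values include MGMT, which had to be lower. Without MGMT the middle of the 9 values was that of UNG, -0.89, and -0.35 after rescaling. The call count was 2 without U118 sensitive replicate 2, a fit in which MGMT did not enter the test, and 3 without U118 resistant replicate 2. No single-gene permutation p is given, because the smallest two-sided value that an exact test of 3 against 3 libraries allows is 0.1.

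Whether the response differed between the lines was tested as an interaction over all 12 libraries. The response of U118 minus that of U87 was called lower for 3 members and higher for 1, while 18.5% of the 16382 genes tested were called lower and 12% higher. Here APEX1 differed by -1.81 (SE 0.34, 95% interval -2.55 to -1.06, limma adjusted p = 0.00119) and passed in all 20 alternatives. PARP1 differed in the other direction, by 1.18 (SE 0.26, 95% interval 0.62 to 1.74, limma adjusted p = 0.00315), and by 1.42 after rescaling (limma adjusted p = 7.55e-05). Its difference was 0.96, under the fold threshold, without U118 resistant replicate 1. For POLB the difference of -1.16 (SE 0.38, limma adjusted p = 0.0292) was called in 11 of 20 alternatives, and after rescaling it was -0.92. MGMT was the remaining call (limma adjusted p = 1.94e-06), which its filter had fixed, and without it 3 of 9 were called. By the adjusted p alone 5 members differed, 4 without MGMT, beside 22.6% of all genes lower and 15.5% higher. XRCC1 (-0.94, limma adjusted p = 0.0269) was under the fold threshold and UNG (-0.94, limma adjusted p = 0.0537) missed on both counts. For LIG3 the difference was -0.25 with a 95% interval of -0.75 to 0.26, for MPG -0.40 (-0.92 to 0.12), for ALKBH3 0.18 (-0.39 to 0.75) and for ALKBH2 -0.70 (-1.59 to 0.20), so for these 4 no difference between the lines was detected, within those bounds.

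The order of mean levels shifted with the group. In U87 sensitive cells PARP1 led at 217.7 ± 17.1 TPM (SD, n = 3), followed by MPG at 77.5 ± 4.34, with no overlap between them, and then by APEX1, XRCC1 and UNG, which overlapped. Among U87 resistant cells APEX1 (73.9 ± 17.0 TPM), PARP1 (72.5 ± 8.32), UNG, MPG and XRCC1 formed a run in which each overlapped the next. In U118 sensitive cells MPG (144.6 ± 34.5 TPM), XRCC1, APEX1 and PARP1 overlapped in turn, well apart from ALKBH3 at 46.7 ± 5.93. In U118 resistant cells PARP1 (82.5 ± 23.0 TPM) and MPG (77.9 ± 2.28) overlapped, apart from XRCC1 at 61.1 ± 10.7. LIG3 was ninth and MGMT last in each group, each apart from the gene above it.

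The levels of U118 resistant cells often sat near those of U87 sensitive cells, although the tables of the lines were normalized separately and this is a description. On the log2 scale of group means, 8 of 10 members were nearer to U87 sensitive than to U118 sensitive cells, all but PARP1 and UNG, as were 64.8% of 16382 genes. MGMT counts among the 8 because it was listed at 0 in both U118 resistant and U87 sensitive cells. MPG differed by 0.01 from U87 sensitive and by -0.88 from U118 sensitive cells. XRCC1 differed by 0.14 and -1.04. PARP1 differed by -1.39 from U87 sensitive and by -0.37 from U118 sensitive cells. The part that the likeness of these libraries to U87 has in the U118 results was not tested.

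Base excision repair has further enzymes, and 26 of a list of 27 others were tested in each line. In U87, 2 were called lower and 0 higher, beside 7.79% and 3.03% of all genes, with a median log2 fold change of -0.40. TDP1, which clears blocked 3′ ends, was at 64.2, 63.4 and 68.3 TPM in sensitive and 25.2, 27.5 and 32.5 TPM in resistant libraries, a log2 fold change of -1.18 (SE 0.11, limma adjusted p = 0.000402), and -0.92 after rescaling. HMGB1, a chromatin protein and cofactor of long-patch repair, changed by -1.63 (SE 0.36, limma adjusted p = 0.0112), and one of its U87 sensitive libraries was at 138.3 TPM with the others at 61.8 and 53.9 TPM. In the U87 resistant libraries HMGB1 was at 27.1, 18.5 and 28.3 TPM.

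In U118, 9 of the 26 were called lower and 1 higher, beside 26.6% and 8.64% of all genes. After rescaling 1 was lower, beside 13% of all genes. Their median was -0.44, and 0.09 after rescaling. The glycosylase genes NTHL1 (-1.32), NEIL3 (-1.25) and MBD4 (-1.11), the strand-break sensors PARP2 (-1.48) and PARP3 (-1.09), and HMGB1 (-1.01) were among the lower ones, as log2 fold changes. Genes of the long-patch branch gave the other 3: LIG1 (-1.50), the sliding clamp PCNA (-1.43) and the polymerase delta subunit POLD3 (-1.87). Of these 9 only POLD3 was still called after rescaling, at -1.34 (limma adjusted p = 0.00044). POLD4, the smallest polymerase delta subunit, rose in U118 from 37.4, 41.1 and 37.3 TPM to 94.6, 113.2 and 118.3 TPM, a log2 fold change of 1.46 (SE 0.20, limma adjusted p = 0.000361). In U87 POLD4 went from 36.5, 55.8 and 50.1 to 80.4, 85.2 and 73.6 TPM, without overlap, and was called after rescaling only (1.02, limma adjusted p = 0.000995).

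Of the 10 other ALKBH family genes and ALKBH3 partners, 0 were called in U87, beside 7.79% of all genes called lower and 3.03% higher. In U118 ALKBH8, a tRNA methyltransferase, was the only one called, beside 26.6% of all genes called lower and 8.64% higher. ALKBH8 went from 15.5, 12.6 and 13.6 TPM to 4.40, 1.77 and 2.64 TPM, a log2 fold change of -1.97 (SE 0.29, limma adjusted p = 0.000573). Rescaling gave 2 of the 10 called higher and 1 lower in U118, beside 2284 and 2025 of the 15527 genes tested. The ASCC subunits that work with ALKBH3 were not called in either line.

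**Figure D3:**
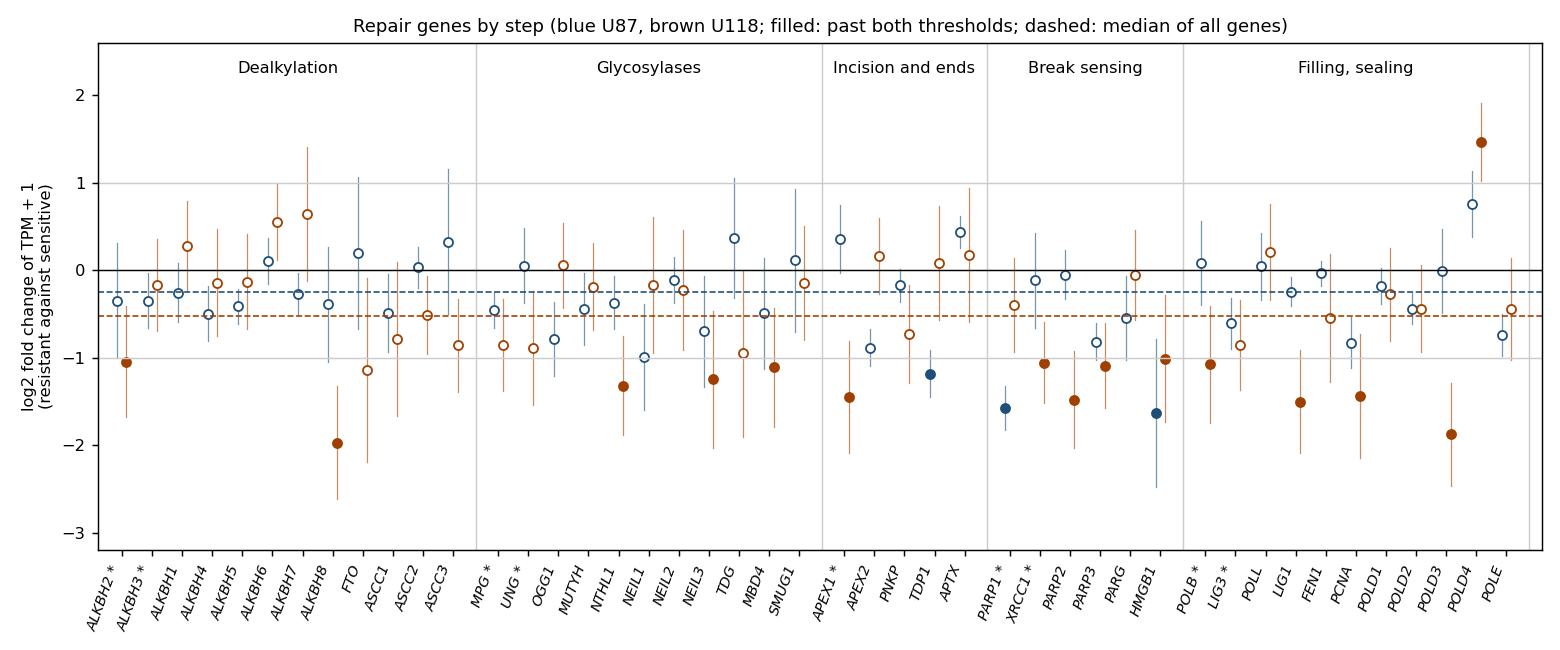
Log2 fold change of TPM + 1, resistant against sensitive, with 95% intervals for the members (marked *) and the other listed repair genes, ordered by step along the x axis, with U87 in blue and U118 in brown; filled points passed both thresholds and dashed lines are the all-gene medians (-0.245 and -0.522). TDP1, HMGB1 and PARP1 are the filled U87 points, and POLD4 is the filled point above 0 in U118. MGMT is not drawn, and neither is APLF, which was tested in neither line.

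Of 10 proliferation markers, 6 were called lower in U87 (median -1.44), beside 7.79% of all genes, and 4 in U118 (median -0.83), beside 26.6%, with 0 called higher in either line. After rescaling 6 and 2 were called lower, beside 3.92% and 13% of all genes. Rescaled values of 3 of the 10 were above 0 in U118, among them RRM2 at 0.70 (0.14 as deposited). Their summed level was 1698 to 1912 TPM in U87 sensitive, 803 to 854 TPM in U87 resistant, 1674 to 1842 TPM in U118 sensitive and 849 to 1178 TPM in U118 resistant libraries. All 10 were at 1 TPM or more in every library. Their part in the changes of PARP1, LIG1, PCNA and the others was not tested. In bulk libraries fewer cells with a transcript and less of it per cell cannot be told apart.

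The genes around the members were examined after their values had been seen, and are given as a description. In U87, 16 genes within 1 Mb of PARP1 were tested, and 7 of them (43.8%) were called lower and 0 higher, against 7.79% lower among all genes. Their median log2 fold change was -0.94. Within 5 Mb the median was -0.71 over 68 genes, within 10 Mb -0.62 over 102 genes, and over the whole of chromosome 1 -0.19 over 1335 genes. LIN9, the neighbour 50822 bases away and a subunit of a cell cycle gene regulator, was at 6.24, 14.4 and 7.22 TPM in U87 sensitive and 1.39, 1.85 and 2.27 TPM in U87 resistant libraries. The region around PARP1 in U118 had a median of -0.61 within 1 Mb, near the -0.522 of all genes there.

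MPG lies near the tip of the short arm of chromosome 16, and its surroundings were lower in U118 resistant cells. Within 1 Mb, 25 of 44 genes (56.8%) were called lower and 0 higher, with a median log2 fold change of -1.31. Within 10 Mb 117 of 180 genes (65%) were called lower and 1 higher, with a median of -1.27, whereas the whole chromosome had a median of -0.58 over 776 genes. In U87 the median within 1 Mb was -0.22 and 0 of 36 genes were called in either direction. MPG itself, at -0.85, thus changed less than the median of its neighbours. NPRL3, a regulator of mTORC1 that overlaps MPG on the opposite strand, was at 87.8, 95.7 and 86.7 TPM in U118 sensitive and 3.55, 4.76 and 4.34 TPM in U118 resistant libraries, while U87 libraries held 6.76 to 8.68 TPM. RHBDF1, 652 bases from MPG, was at 71.5, 51.9 and 51.5 TPM in U118 sensitive and 22.0, 15.8 and 13.7 TPM in U118 resistant libraries. The kit's strand setting in counting is not given in the sources used here, so reads of MPG and NPRL3 in their shared stretch cannot be told apart.

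The surroundings of the other members also varied. In U118 the median within 1 Mb was -0.86 around APEX1 (22 genes, 45.5% called lower), -0.83 around XRCC1 (38 genes, 44.7%) and -0.69 around POLB (19 genes, 42.1%), beside 26.6% of all genes called lower. Around ALKBH3 it was -0.51 within 1 Mb over 9 genes and -0.06 within 5 Mb over 52 genes, above the all-gene median, and around MGMT -0.15 within 5 Mb over 40 genes. For XRCC1 it was -0.07 within 5 Mb over 212 genes. Around LIG3 it was -0.30 over 19 genes, and around ALKBH2 and UNG, which share their surroundings, -0.49 over 22 genes. DNA copy number was not measured in the libraries described here, and any part of it in these values was not tested.

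**Figure D4:**
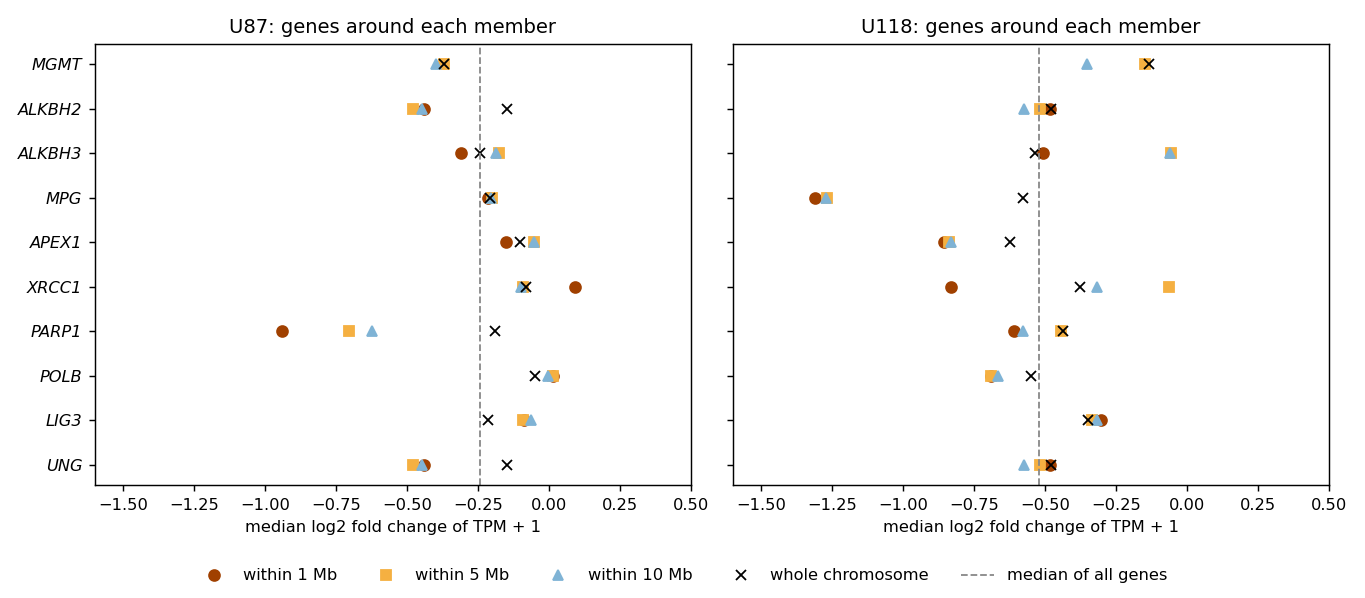
Median log2 fold change of the genes within 1, 5 and 10 Mb of each member and on its whole chromosome, resistant against sensitive, in U87 (left) and U118 (right); windows with fewer than 5 genes are left out and the dashed line is the median of all genes. PARP1 stands to the left of the others in U87 (-0.94 within 1 Mb) and MPG in U118 (-1.31 within 1 Mb).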

How the data were processed

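mRNA-seq libraries were made with a VAHTS mRNA-seq V2 kit from 12 samples. The authors deposited 1 table of TPM per cell line. The submitters' processing notes name GRCh38, FastQC 0.11.2, Trimmomatic 0.36, HISAT2 2.0 and bedtools 2.26.0, and the tool that made TPM, its annotation and its strand setting are not given in the sources used here. TPM holds no counts, so no count test, depth or detection limit could be given.

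For each line, log2(TPM + 1), a scale that understates changes of low genes, was modelled in R 4.3.3 by limma 3.58.1 with lmFit and a trended eBayes. Genes entered when 3 or more of the 6 libraries (12 for the interaction) reached 1 TPM. P-values were adjusted over all genes tested (Benjamini-Hochberg). The fit was also run on simulated data with independent noise, no low genes and no overall shift between groups. That run therefore says nothing of how the fit handles low genes or the overall shift seen here. The members and lists were chosen with earlier results of these data known. Named were the members, list genes called in a line, the 5 genes most like MGMT, and adjoining genes. The alternatives are given in the closing section. Positions are from GENCODE 29, and Python 3.11.15, pandas 2.3.3 and matplotlib 3.10.9 were used.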

Additional observations from a re-analysis of the deposited data

Results flagged for a closer look

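The response to the resistant state differed between U118 and U87 at an adjusted p under 0.05 for 5 members in limma's interaction test, beside 22.6% of all genes lower and 15.5% higher, and 4 of the 5 also passed the fold threshold. For MGMT (adjusted p = 1.94e-06), listed at 0 in both U87 groups and in U118 resistant libraries, the filter had fixed the outcome. For APEX1 (adjusted p = 0.00119) the U118 response was lower by -1.81 on the log2 scale. PARP1 (adjusted p = 0.00315) had the opposite difference, 1.18, since it fell in U87. For POLB (adjusted p = 0.0292) the difference was -1.16, and for XRCC1 (adjusted p = 0.0269) it was -0.94, under the fold threshold. With POLB the adjusted p ran from 0.00123 to 0.0758 over 20 alternatives, and with XRCC1 from 0.00771 to 0.184.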

How the results depend on the processing

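The alternatives were eBayes without trend, pseudocounts of 0.1 and 0.01, dropping the filter or raising it to a 10 TPM mean, median-ratio scaling, TPM without mitochondrially encoded genes, a replicate block, no fold threshold, and leaving out each library. The number of members called in U118 (5, MGMT included) became 1 with median-ratio scaling (13% of all genes lower), 2 without mitochondrially encoded genes (22.2%), 8 without a fold threshold (39.1%), and 2 to 5 with libraries left out. In U87 (1) it became 3 without a fold threshold (29.7% of all genes lower) and stayed at 1 with any library left out. For the difference between the lines (4) it was 2 to 6 with libraries left out, lowest without U118 sensitive replicate 2, where MGMT was no longer tested. Calls among the 26 other base excision repair genes tested went from 2 to 12 in U87 without a fold threshold (10 lower, 2 higher). Among all 13845 genes 4107 were then lower and 1306 higher. In U118 such calls went from 10 to 2 with scaling (1 lower, 1 higher), beside 2025 and 2284 of 15527 genes. For the calls lost, the cause was not tested.

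Some log2 values reversed, none past the threshold. With scaling they were 0.15 (XRCC1, U87), 0.0168 (LIG1, U87), 0.24 (POLD3, U87), 0.20 (PARP2, U87), 0.38 (ALKBH3, U118) and 0.15 (PARP1, U118). Without mitochondrially encoded genes they were 0.0222 (XRCC1, U87), 0.12 (POLD3, U87), 0.0798 (PARP2, U87) and 0.0264 (ALKBH3, U118). With each library left out in turn, U87 values ran from -0.32 to 0.10 for XRCC1, -0.14 to 0.22 for POLB, -0.0629 to 0.21 for UNG, -0.20 to 0.17 for POLD3 and -0.13 to 0.0206 for PARP2. TDP1 in U118 ran from -0.21 to 0.31, and the difference of ALKBH3 between the lines from -0.00632 to 0.28.

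Same-numbered libraries correlated at 0.011, -0.067 and -0.040 in U87 and at 0.139, 0.051 and 0.095 in U118 as deviations from their group means. Libraries of unlike number correlated at -0.058 to 0.077 in U87 and at -0.108 to 0.040 in U118. The same-numbered values of U118 were thus the higher ones. The labels do not tie numbers together, and whether the samples were paired cannot be told from these values, so the main fits used no pairing. With the replicate block the counts of members called were 1 in U87, 5 in U118 and 4 for the difference, and 2 and 10 for the other repair genes. Among all genes 1040 of 13845, 4218 of 15527 and 3079 of 16382 were called lower in these fits, and 414, 1363 and 1985 higher. TPM carries no depth, so what depth limits could not be given.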
